A study of Homo sapiens with 10 samples.

Results

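The m6A methylome of HCT116 cells was taken as every window in the peak lists of the 2 m6A-seq replicates, 24494 windows in list 1 and 24855 in list 2, or 49349 in all, which are all the peak windows of the series. HCT116 is a human colorectal cancer line of epithelial origin. Both m6A samples carried the control genotype and, like every sample of the series, were labelled as treated with cycloheximide, an inhibitor of translation elongation, at 100 ug/ml for 3 min. The other readouts used here come from 1 control library with a hairpin against GFP and 2 libraries of knockdown of the m6A reader YTHDF1 (shY1-1 and shY1-2, which the labels do not mark as 2 hairpins or as 2 replicates of 1) in ribosome profiling, the same numbers in mRNA-seq, and 1 YTHDF1 RIP library with its whole-cell lysate input. The labels give all 10 samples the library protocol of ribosome profiling, so they do not give the m6A antibody or fragment size. The labels do not say whether the m6A replicates came from separate cultures.

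N6-methyladenosine is the most abundant internal modification of mRNA. A nuclear complex around METTL3, METTL14 and WTAP writes it, ALKBH5 and FTO remove it, and YTH domain proteins such as YTHDF1 bind it. The writer prefers an adenosine followed by a cytosine and preceded by purines, and m6A is known to gather in long internal exons and near the stop codon. In m6A-seq, RNA fragments are pulled down with an antibody against m6A and compared with fragments that were not. Each window of the lists has a gene, a start and end in bases along an unnamed transcript, a signal in the immunoprecipitate and in the input, and their ratio, here called POI (peak over input). Every ratio was at least 3.00 and every immunoprecipitate signal at least 150.4, the lowest values in the authors' lists. The ratios are the authors' own and describe windows within a list.

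Each window also had a deposited m6A position with the 5-letter sequence there, which is the only sequence the lists hold. These letters are shown because they are the chemical context of each proposed site. Every window of both lists had 1 of 12 sequences, each with 2 purines, then AC, then A, C or T. The most frequent was GGACA, with 2806 windows in list 1 and 2726 in list 2, followed by GGACC with 2445 and 2443. GGACT had 2260 and 2158 windows. AAACC was the rarest, with 1480 and 1611. By the first 4 letters, GGAC made up 30.7% of list 1 and 29.5% of list 2, AGAC 25.5% in both, GAAC 23.3% and 23.2%, and AAAC 20.5% and 21.8%. Since no other sequence occurs, the lists cannot show how often a peak lacks such a site. The labels do not say how positions were assigned.

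The sequence around a site could be read where the deposited position lay close to the transcript start. There were 39 genes with the same position in both lists within the first 45 bases and an entry in the RefSeq promoter table (GRCh38.p14). At 5 of them the deposited letters stood at the matching distance from the RefSeq start, counting the start as 0, against 1 gene or none at each shift of up to 4 bases either way. The other genes had no match at that distance, and where their unnamed transcripts begin was not tested. These 5 sites are printed as examples of what the lists point to, 5′ to 3′, with the deposited letters in capitals.
ABCB8, plus strand, chr7:151028464-151028492: gggatgagggtgAAACTgctattgccggc
EXOC6, plus strand, chr10:92848530-92848558: caaaatggcggaGAACAgcgagagtctgg
RAB14, minus strand, chr9:121201848-121201869: atcttGGACCagcccgaggaag
TMEM248, plus strand, chr7:66921240-66921268: ttgccggagcccGAACTgaggcggcggcg
TUBGCP5, minus strand, chr15:23039531-23039559: tgcaggagcgcgGAACAtggcgcggcacg
The window at the RAB14 site, in a gene for a small GTPase of endosome traffic, had POI 10.4 in list 1 and 8.26 in list 2, over an input signal of 132.6 in both. EXOC6, a subunit of the exocyst, had the highest ratios of these sites, 66.8 and 93.2, over an input of 16.0 in both lists. TUBGCP5, of the gamma-tubulin complex, had the lowest, 4.05 and 3.60. TMEM248 had 24.4 and 30.5, and ABCB8, a mitochondrial transporter, had 10.5 and 8.36.

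Replicates recovered most of each other's windows. Windows of the same gene that shared at least 1 base between lists numbered 18239 in list 1 (74.5%) and 18043 in list 2 (72.6%). Chained together they formed 17592 regions, here called supported regions, in 7805 genes. List 1 had windows in 8695 genes and list 2 in 8946, with 8076 genes in both and 9565 in either. In 78.4% of supported regions the deposited m6A position was the same base in both lists, and the summits lay a median of 5 bases apart. The lists share 1 input: in all 5972 pairs of identical windows the input signals were equal. Agreement between them is therefore not that of independent experiments.

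Windows without a partner were weaker. In list 1 their median POI was 4.59 against 5.97 for supported windows, and in list 2 4.48 against 5.97. Their immunoprecipitate signal had a median of 416 against 775 in list 1, and 497 against 814 in list 2. The share of windows found in the other list was 51.1% and 46.7% in the lowest decile of POI and 83.6% and 83.1% in the highest. Much of that gain came early, with 77.2% and 73.2% in the fourth decile. Just inside the threshold, a window of EIF4A2 (POI 3.0004 in list 1) had a partner, whereas TKT (3.0005) and, in list 2, CRK (3.0002) had none.

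POI was read where the input signal was at least 10, which held for 23650 windows of list 1 (96.6%) and 24101 of list 2 (97.0%). The median there was 5.57 in list 1, with quartiles of 4.01 and 8.63, and 5.48 in list 2, with quartiles of 3.99 and 8.59. Windows with POI of at least 10 were 19.6% and 19.1%. Under that input the ratio grows large because its divisor is small. The 844 and 754 windows there include 460 and 422 with an input of 0, whose ratio is listed as missing, and the rest had median POI of 50.9 and 49.6 with values up to 27725 and 22172. Just outside the limit, at inputs of 9.96 and 9.95, single windows had POI 30.3 and 46.6, and just inside it, at 10, they had 35.5 and 35.7. Of the windows with no input, 49.3% and 52.1% were supported. Inside the limit, high POI still went with low input. The lists hold no immunoprecipitate signal under 150.4, so windows with both low input and low POI are absent from them. Median input was 147 and 151 in the lowest decile of POI, and 41.1 and 50.5 in the highest.

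Across the 17122 supported regions with that input in both lists, log2 POI correlated at r = 0.83 (Pearson) and POI at rho = 0.79 (Spearman). These points share the input library, so the values are descriptions. The immunoprecipitate signals alone, which do not share a divisor, correlated at r = 0.80 on the log2 scale. The ratios of a region differed by a median of 1.20-fold between lists, and 94.7% lay within 2-fold. Of the 3727 regions with POI of at least 10 in list 1, 74.3% passed that level in list 2.

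**Figure D1:**
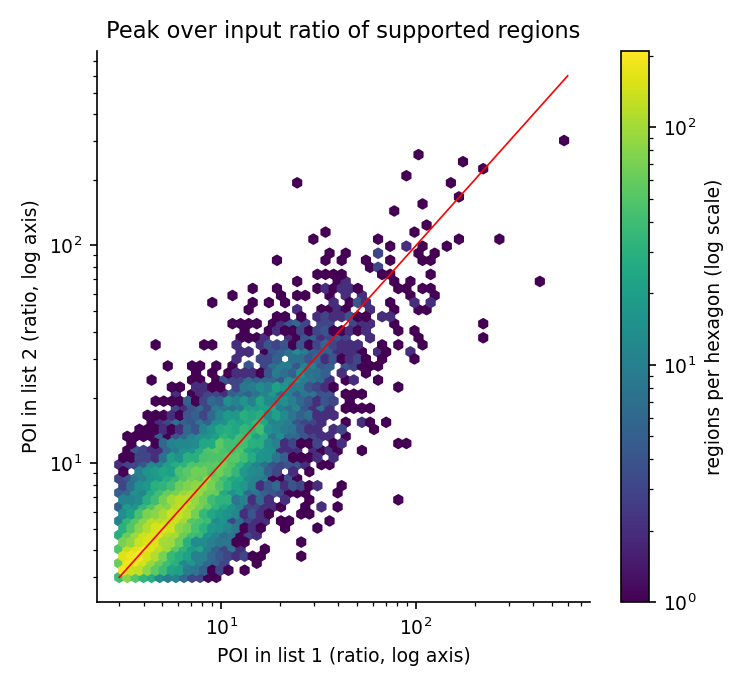
POI of 17122 supported regions in list 1 (x axis) and list 2 (y axis), both on log axes, with colour for the number of regions in each hexagon and a red line at equal values. Most regions lie along the line, and the sharp lower edges are the lists' own limit of 3.00.

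The letters of the site varied little with POI. GGAC made up 31.3% of windows in the lowest decile of POI in list 1 and 32.1% in the highest, and 29.4% and 30.2% in list 2. Over all deciles the share lay between 28.4% and 32.1% in list 1 and between 27.6% and 30.2% in list 2. GGACT, the best known m6A context, made up 9.34% of the lowest and 9.85% of the highest decile in list 1, and 8.63% and 9.59% in list 2. Median POI by sequence ran from 5.41 for AAACT to 5.79 for AGACT in list 1, and from 5.31 for AGACA to 5.67 for GAACT in list 2. Supported and unsupported windows were also alike in this respect, with GGAC at 30.4% and 31.5% in list 1 and at 30.0% and 28.2% in list 2. The deposited position lay a median of 18 bases from the summit in list 1 and 19 in list 2. In 4679 and 4745 windows it lay outside the window itself. From the lowest to the highest decile of POI, the median distance went from 19 to 17 bases in each list. Positions within 5 bases of the summit had GGAC in 30.1% and 29.1%, and those over 50 bases away in 32.1% and 31.0%.

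**Figure D2:**
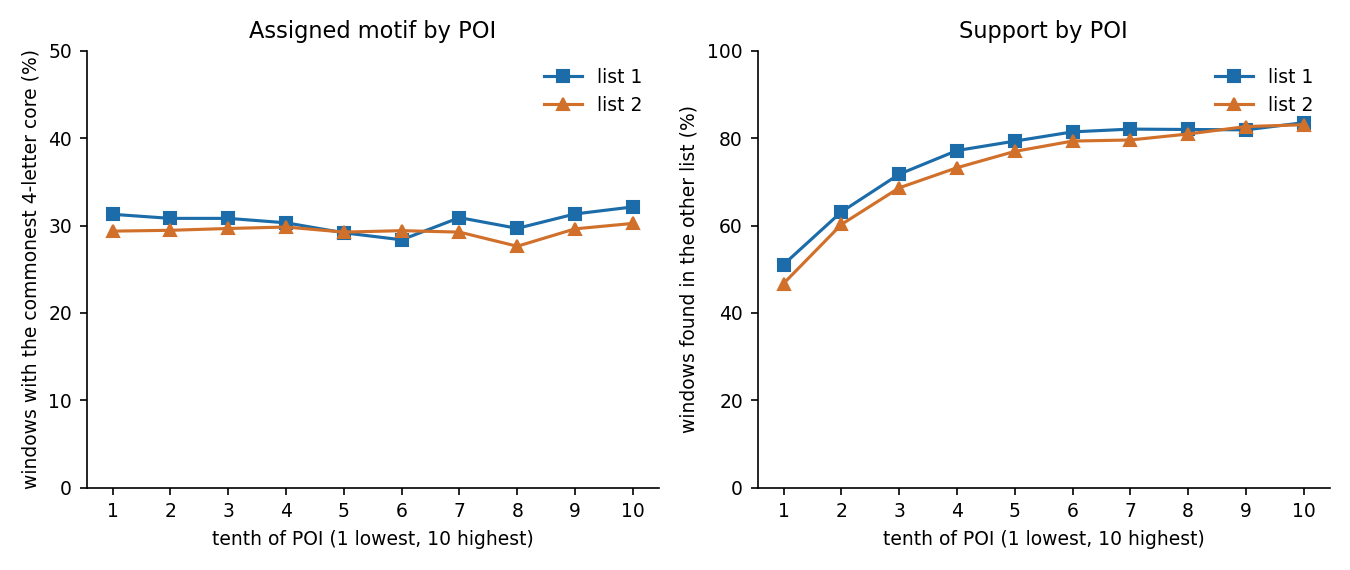
Left, share of windows (y axis, %) whose assigned site begins with the commonest 4 letters, by decile of POI (x axis) for windows with input of at least 10, in list 1 (blue squares) and list 2 (orange triangles). Right, share of the same windows that overlap a window of the other list. The left curves stay between 27.6% and 32.1%, while the right ones go from 46.7% and 51.1% to 83.1% and 83.6%.

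Along the transcript, supported regions had a median centre at base 1525, with quartiles of 850 and 2500, and reached base 22900 in MACF1, which encodes a giant protein linking actin and microtubules. Regions centred in the first 200 bases were 532 (3.02%), and 949 (5.39%) lay at base 5000 or beyond. Transcript lengths were not used here, so the share near a stop codon or in an untranslated end was not analysed. Median POI in list 1 was 6.81 for regions centred in the first 200 bases, 5.58 for those from base 200 to under 500, and 6.28 for those from 2000 to under 5000. List 2 had 6.79, 5.69 and 6.29. GGAC sites were 35.5% of regions in the first 200 bases, 33.0% from base 200 to under 500, and between 29.2% and 30.9% in each later stretch. Windows were narrow, with a median of 100 bases in list 1 and 125 in list 2, and ranged from 50 bases to 1325 and 3350.

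Order within the gene gave a position that needs no length. Among 2009 genes with 2 supported regions of sufficient input, the later region was the stronger in 57.7% in list 1 and 54.9% in list 2, where an even split would be 50%. Among 1148 genes with 3 regions, the last was the strongest in 38.2% and 37.7% and the middle one in 30.1% and 29.6%. Among 586 genes with 4, the last was the strongest in 34.6% and 29.4%, against 25% for an even split. Among 281 genes with 5 regions it was 22.8% and 23.5%, against 20%. Neighbouring regions of a gene lay a median of 375 bases apart, with quartiles of 125 and 850.

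Most marked genes had few regions. One supported region was found in 3173 genes (40.7%), 2 in 2114 (27.1%), 3 in 1236 (15.8%) and at least 4 in 1282 (16.4%). Genes of the last class held 36.9% of all regions. The mean was 2.25 regions per marked gene, and 29 genes had at least 10. By the RefSeq table, 7737 of the marked genes (99.1%) code for proteins and 9 are long noncoding RNAs.

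The genes with the most regions include cytoskeletal linkers, ubiquitin ligases, chromatin enzymes and the Mediator subunits MED13 and MED13L. MACF1 (chromosome 1, 39084167 to 39487138) had 21 regions between bases 2350 and 22975, with 28 windows in each list and summed POI of 183 and 179. HIPK2 (chromosome 7, 139561570 to 139777998), a nuclear kinase, also had 21, between bases 25 and 14300, with 24 windows in each list and sums of 151 and 163. Both were thus alike in the 2 lists. DST, another cytoskeletal linker, had 14 regions. In DST none of the 14 had a GGAC site in list 1, while 8 of 21 did in MACF1. RNF213, HERC2 (both ubiquitin ligases) and ASH1L (a histone methyltransferase) had 13. The sums of RNF213, 1059 and 99.0, differ because 1 region had POI 957 in list 1 over an input of 0.250. MED13, MED13L (of the Mediator complex) and KMT2A (a histone methyltransferase) had 12 each. KMT2A had a region with POI of 64.0 and 83.1, and MED13L one of 76.2 and 144.

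The highest ratios sat elsewhere, often in genes with near-identical copies. Among supported regions with input of at least 10, the highest mean POI belonged to MTRNR2L1 (chromosome 17, 22523415 to 22524663), at 575 and 303, with input signals of 158 and 169. This gene and MTRNR2L8 (225 and 218) and MTRNR2L3 (106 and 270) are nuclear copies of a mitochondrial ribosomal RNA segment. NOMO1 (182 and 240) has near-identical paralogs, and HSPA1B (88.7 and 209), a stress-induced chaperone, is near-identical to HSPA1A. The labels do not say how reads were shared among such copies, so these values are uncertain. The rest of the top 10 regions were in NCEH1, DNAL1, AGO2 and RCOR1, besides a further one in MTRNR2L1. DNAL1, an axonemal dynein light chain, had 147 and 193 over inputs of 226 and 234. AGO2, the slicer of RNA interference, had 166 and 172 over an input of 10.5, and RCOR1, a transcriptional corepressor that works with a histone demethylase, had 162 and 110 over 15.3. NCEH1, a cholesterol ester hydrolase, had 421 and 68.6, over inputs of 10.3 and 95.1, so its ratios disagreed. Its immunoprecipitate signals were 4355 and 6527, and both lists gave the same m6A position, base 1171.

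Peaks were then read against mRNA level in 6914 genes of the expression table, which lists genes with control mRNA of at least 0.501 in a relative unit that is not named. Among epithelial markers, EPCAM stood at 142, KRT8 at 1529, KRT18 at 636, KRT19 at 1590 and CDH1 at 20.1. The intestinal factor CDX2 stood at 3.07 and VIL1 was not in the table. Of markers of other cells, VIM stood at 1.15, COL1A1 at 1.35 and CD68 at 19.9, and COL1A2, PTPRC and PECAM1 were not in the table. Of all 6914 genes, 70.6% had a supported region, 77.3% a window in list 1 and 78.9% a window in list 2. The share with a supported region was 37.3% in the lowest decile of control mRNA, 82.5% in the sixth and 69.2% in the highest. Genes with at least 4 regions made up 18.1% of the fifth decile and 5.78% of the highest. Marked genes were therefore most frequent at middle levels, and the lists gave the same shape separately. Both lists share the input and hold no immunoprecipitate signal under 150.4, so peaks of genes with little mRNA may go unlisted. The part of this limit in the low share of the lowest decile was not tested.

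**Figure D3:**
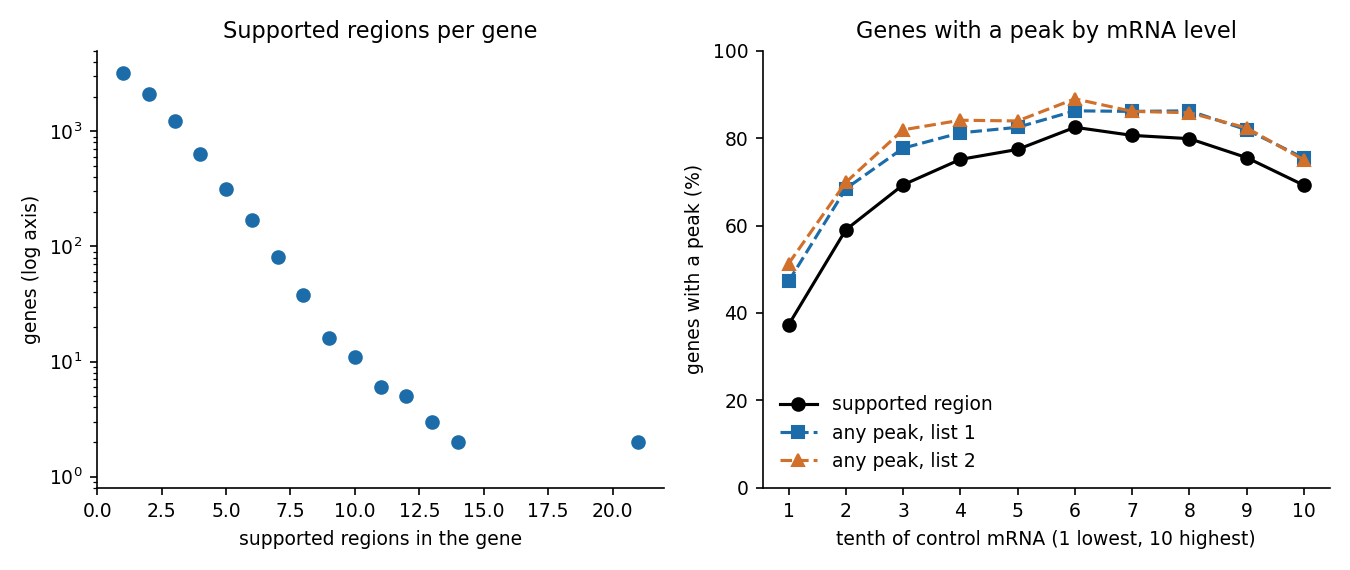
Left, number of genes (y axis, log) by number of supported regions (x axis). Right, share of genes with a supported region (black), or with a window in list 1 (blue) or list 2 (orange), by decile of control mRNA in 6914 genes. The black curve goes from 37.3% through 82.5% to 69.2%.

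The most abundant mRNAs with no window in either list were mostly those of ribosomal proteins. RPS27, of the small ribosomal subunit, had a control mRNA level of 12080, the highest in the table, and no window. RPL21 (4323), RPL19 (3400), RPL35A (1765), RPL23A (1623), RPS24 (1304), RPLP1 (1211) and RPL14 (1209) were likewise bare. S100A6 (3498), a calcium-binding protein, and TMSB10 (2996), which binds actin monomers, completed the 10. None of these genes was in the YTHDF1 RIP list, which held 16.1% of all genes with no supported region. Their span on the genome ran from 1016 bases for TMSB10 to 22944 for RPS24, below the median of 31522 for all genes of the table.

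Gene families were compared with all genes at the same mRNA levels: each family's share of genes with a supported region was set beside the share expected from the deciles its members fall in. Of 35 families with at least 10 genes in the table, 20 were above and 15 below. These are descriptions without a test, and longer genes offer more sequence. Family shares, region counts and highest ratios cover only members in the expression table. Over the whole m6A lists, 37 cytosolic ribosomal protein genes were marked, against 22 in the table. Oxidative phosphorylation had 33 against 18, mitochondrial ribosomal proteins 46 against 30, and aminoacyl-tRNA synthetases 22 against 13. Unmarked members outside the table were not counted.

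Among dense families, the SOX, FOX and KLF transcription factors stood furthest above. A supported region was found in 23 of 24 (95.8%, 70.6% at matched levels), with a mean of 2.92 regions per gene against 1.65. KLF5, an intestinal crypt factor, had 3 regions with a highest POI of 15.1 in list 1 and 17.5 in list 2, FOXK2 had 5 (10.5 and 8.58) and SP2 had 2 (11.4 and 8.81). SOX9, a factor of intestinal stem cells, had 4 (12.2 and 13.4). KLF12 was the member without one, although it had windows in both lists. The excess of 25.3 points was 22.6 and 20.7 with windows of a single list, and 22.7 among genes with mRNA of at least 5. It was 35.6 points when regions needed POI of at least 5 in both lists, which 51.2% of all genes had.

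All 13 cytosolic aminoacyl-tRNA synthetase genes in the table, counting the partner protein AIMP1, had a supported region, against 75.5% at matched levels. FARSA had 1 (3.01 and 3.14), MARS 3 (6.85 and 9.34) and EPRS 6 (20.5 and 21.9). NARS reached 29.0 and 25.1. These enzymes charge tRNAs, and their genes stood at the opposite end of the range from those of ribosomal proteins. With windows of a single list the excess of 24.5 points was 18.4 and 18.0.

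Histone lysine methyltransferases and demethylases had a region in 30 of 35 genes (85.7%, 65.4% at matched levels) and a mean of 3.03 regions against 1.51. The excess of 20.3 points was 12.7 in list 1 alone. NSD2 had 3 regions (7.62 and 9.26), KDM1A 1 (16.8 and 14.9) and KDM2B 1 (3.86 and 3.67), while SETD5 had 8 and KDM6B 7. Their median gene span was 64222 bases. Matched on gene span as well as on mRNA, in a coarser split, the excess was 20.98 points. That split of mRNA alone gave 22.5 points. Chromatin remodellers and coactivators, with 36 of 41 genes marked, had the highest mean relative to matched genes, 3.34 regions against 1.66. ZBTB factors, 15 of 18 marked, stood 17.2 points above. ZBTB45 had no supported region, ZBTB7B had 5 and ZBTB7A 1. Among the 8 ZBTB genes with mRNA of at least 5 the difference turned to -13.8 points, and it was 11.4 points at POI of at least 5.

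Glycolytic enzymes were marked in 12 of 13 genes (92.3%, 73.5% at matched levels) at a median mRNA level of 313. GAPDH had 2 regions (6.72 and 4.61), ENO1 1 (16.2 and 15.6) and TPI1 1 (3.87 and 4.45). LDHA, which makes lactate, had 5 (11.2 and 15.9), while LDHB had no window in either list. With POI of at least 5 in both lists the excess of 18.8 points was 3.05.

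Genes of the Wnt pathway, which the series is about, were marked in 22 of 25 (88.0%, 67.6% at matched levels). The excess was 20.5 points, but 8.73 among the 15 genes with mRNA of at least 5. Of the 3 members of highest mRNA, BCL9L, a coactivator of beta-catenin, had 2 regions (9.97 and 10.4), CSNK1G2, a casein kinase, had none supported, and TCF7L2 had 3. Of the receptors, LRP6 and LRP5 had 5 and 2, FZD7 4, FZD2 2 and FZD5 1. Of the ligands, WNT10B had 2 and WNT9A 1, while WNT3A had windows in both lists that did not overlap. In the destruction complex, GSK3B had 2 and AXIN1 1. The ligase ZNRF3, which removes Wnt receptors, had 5, and DVL1 had none supported although DVL2 and DVL3 had 1 each.

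In CTNNB1, which encodes beta-catenin (chromosome 3, 41199505 to 41240443), 3 regions were supported. The first, at bases 100 to 225, had POI 6.11 and 5.38 with the site GGACT at base 202 in both lists. The second, at 1575 to 1800, had 3.96 and 4.73 with GGACT at 1752. The third, at 1900 to 2025, had 8.41 and 7.23 with GGACA at 1948. All were of modest strength, with ratios in the 2 lists close to each other. TCF7L2, the partner of beta-catenin on DNA, had 7 windows in list 1 and 3 in list 2. Its region at bases 25 to 175 had POI 46.8 and 30.2, over low inputs of 15.8 and 5.28, with GAACT at base 79. Its others had 3.58 and 3.37, and 15.3 and 8.70. LRP6, a Wnt co-receptor, had regions along bases 250 to 4900, of which the one from 2100 to 2475 had 33.0 and 17.9 with a different position in each list. AXIN2, a feedback inhibitor, had 3 regions with POI between 3.63 and 7.56, and MYC, a Wnt target, had 1, at 4.48 and 4.55. LGR5, a stem cell marker, had no window, and its mRNA was not in the table.

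The m6A machinery itself lay below matched genes in the share of marked genes and above them in regions per gene. Among writers, erasers and readers, 8 of 12 genes in the table were marked (66.7%, 77.7% at matched levels), although those that were had many regions, so that the mean was 2.50 against 1.81. METTL14 had no window, and METTL3 and WTAP had 1 window each, in a single list. The erasers differed, with 5 regions in ALKBH5 (6.94 and 7.90) and none in FTO. METTL16, which methylates U6 and MAT2A RNA, had 7 (23.5 and 23.5). Of the readers, YTHDF1 had 3 regions, at bases 400 to 650 (9.79 and 9.84), 875 to 1075 (5.14 and 3.74) and 1275 to 1425 (3.48 and 3.90). YTHDF2 had 4, with POI between 3.90 and 7.33, and YTHDF3 had 1 (5.95 and 6.35).

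Bare families were mainly those of abundant housekeeping complexes. Oxidative phosphorylation genes had the lowest share, 18 of 45 in the table (40.0%, 70.7% at matched levels), with a mean of 0.578 regions against 1.41. NDUFS5 of complex I, the most abundant member at 761, and ATP5I had no window, while COX4I1 had 2 regions (5.46 and 4.33). The highest ratios of the family at inputs of at least 10 were in UQCRC2, a core subunit of complex III, at 44.7 and 40.5. Cytosolic ribosomal proteins followed with 22 of 49 in the table (44.9%, 69.5% at matched levels). RPS27 and RPL21 were bare and RPS15 had 1 region (6.22 and 5.74), while RPS3A had 3 regions. The highest ratios of the family were in RPL41 (46.7 and 23.6) and RPS28 (44.9 and 28.3), with 1 region each. Mitochondrial ribosomal proteins had 30 of 48 marked (62.5%, 74.4% at matched levels) and none had more than 2 regions. MRPS34 had 1 (5.31 and 6.35), and MRPS23 and MRPS18C had no window. Proteasome subunits had 15 of 25 (60.0%, 71.3%), among them PSMA7 with 1 region (4.90 and 4.998) and PSMD8 with 1 (4.69 and 5.04), while PSMB3 had none supported. Their difference of -11.3 points was -20.3 at POI of at least 5.

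Splicing genes were split by kind of protein. Core spliceosome proteins had 21 of 41 marked (51.2%, 72.7% at matched levels), a difference of -21.4 points that was -11.6 at POI of at least 5. The small proteins SNRPG, LSM6 and SNRPD1 had no window, and SNRPA1 had 1 region (8.50 and 8.69). The large proteins SF3B1, PRPF8 and SNRNP200 had 8, 7 and 7. SR and hnRNP proteins had 10 of 19 marked (52.6%, 70.1%), but the difference of -17.4 points was -2.73 in list 2 alone and -10.7 at POI of at least 5. HNRNPA1 had 2 regions (4.74 and 5.02), HNRNPC no window and HNRNPF 1 (4.90 and 3.68). The median POI of the family's regions was 8.22 and 7.60.

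The bare families had short genes. Median spans were 5321 bases for cytosolic ribosomal proteins, 9242 for oxidative phosphorylation, 9172 for mitochondrial ribosomal proteins, 12746 for the proteasome, 16235 for the spliceosome and 15981 for SR and hnRNP proteins. With genes matched on mRNA and span together, in a coarser split chosen after seeing the data, the differences of the first 3 were -19.8, -28.6 and -8.44 points. The same coarser split of mRNA alone gave -27.6, -32.2 and -12.0. Those of the other 3 were -11.4, -21.8 and -19.4 points with span, against -13.0, -21.7 and -19.7 without it. Histone genes, with a median span of 1898 bases, were marked in 8 of 10 (80.0%, 71.1% at matched levels). Their mean was 1.20 regions per gene, below the 1.51 of matched genes. Glycolytic enzymes had a median span of 22501. Span includes introns, and the part of transcript length in these differences was not tested. Near the middle of the range lay the ZNF genes (106 of 177, a difference of -0.554 points from matched genes), translation factors (35 of 48, -0.742 points), immediate early genes (24 of 33, 1.87 points) and solute carriers (93 of 126, 4.10 points). Mediator subunits were marked in 13 of 19 (68.4%, 76.1% at matched levels), and 2 of them had at least 4 regions.

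**Figure D4:**
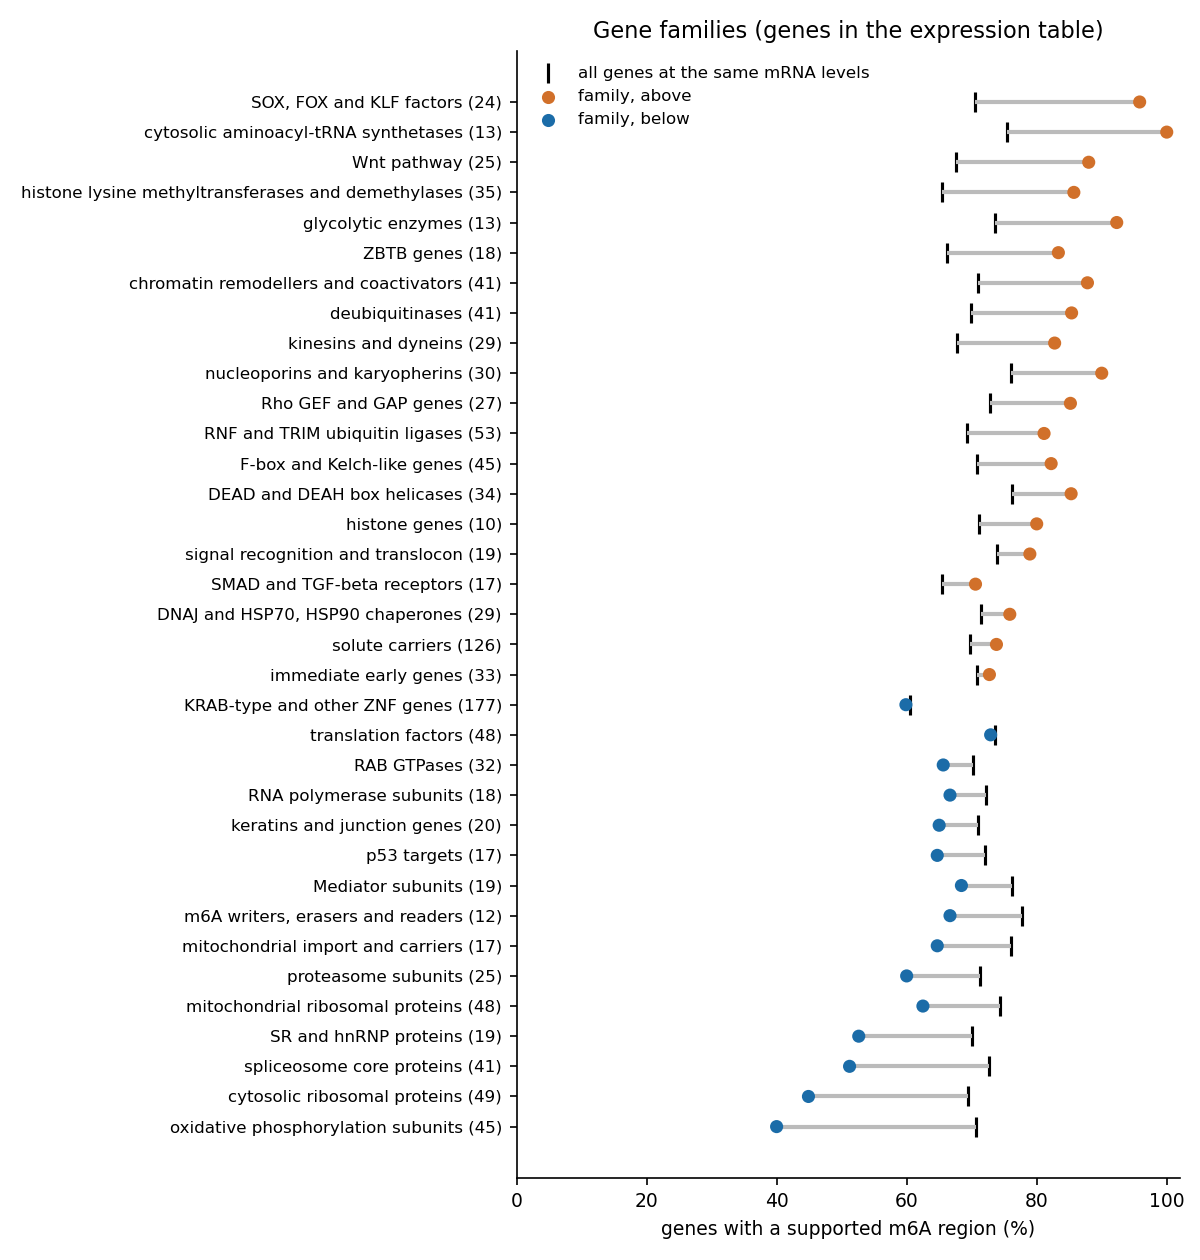
Share of genes with a supported region (x axis, %) in 35 families, with the number of genes in brackets. Dots are the families, orange where above and blue where below the black tick, which marks all genes at the same mRNA levels. SOX, FOX and KLF factors stand highest above at 95.8% against 70.6%, and oxidative phosphorylation lowest at 40.0% against 70.7%.

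Genes with more regions were more often recovered with YTHDF1. The RIP list, 1 library and its input with a ratio of at least 1.501, held 35.8% of the 6914 genes. It held 16.1% of genes with no supported region, 29.2% of those with 1, 46.1% of those with 2 or 3 and 71.6% of those with at least 4. All genes at the same mRNA levels gave 33.0%, 35.3%, 37.5% and 39.0% for these classes. With gene span matched as well, all genes gave 42.3% for the last class. Median ratios of the listed genes were 2.07, 2.05, 2.26 and 2.67. The densest genes named above were in the list except DST, with ratios from 5.14 for KMT2A to 15.7 for RNF213. The part of transcript length in this was not tested, and with 1 RIP library these shares have no replicate check.

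After YTHDF1 knockdown, footprints and mRNA of marked genes stayed close to those of unmarked genes. Changes here are medians on the log2(value + 1) scale against the 1 control library, which both knockdown libraries share. Footprint changes of genes with no region were -0.21 in knockdown 1 and -0.33 in knockdown 2, and those of genes with at least 4 regions were -0.20 and -0.37. All genes had -0.21 and -0.34. For mRNA, the same classes had -0.01 and 0.00 with no region and -0.04 and 0.06 with at least 4. The change in translation efficiency, footprints relative to mRNA, was -0.23 and -0.32 with no region, -0.20 and -0.45 with at least 4, and -0.18 and -0.36 over all genes. The classes thus differed by 0.03 in knockdown 1 and -0.13 in knockdown 2, with opposite signs. In the control library, footprints relative to mRNA stood at a median log2 of 1.17 in genes with no region, 1.06 with 1, 0.99 with 2 or 3 and 0.95 with at least 4. Median control mRNA in these classes was 6.66, 13.9, 13.8 and 12.3.

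**Figure D5:**
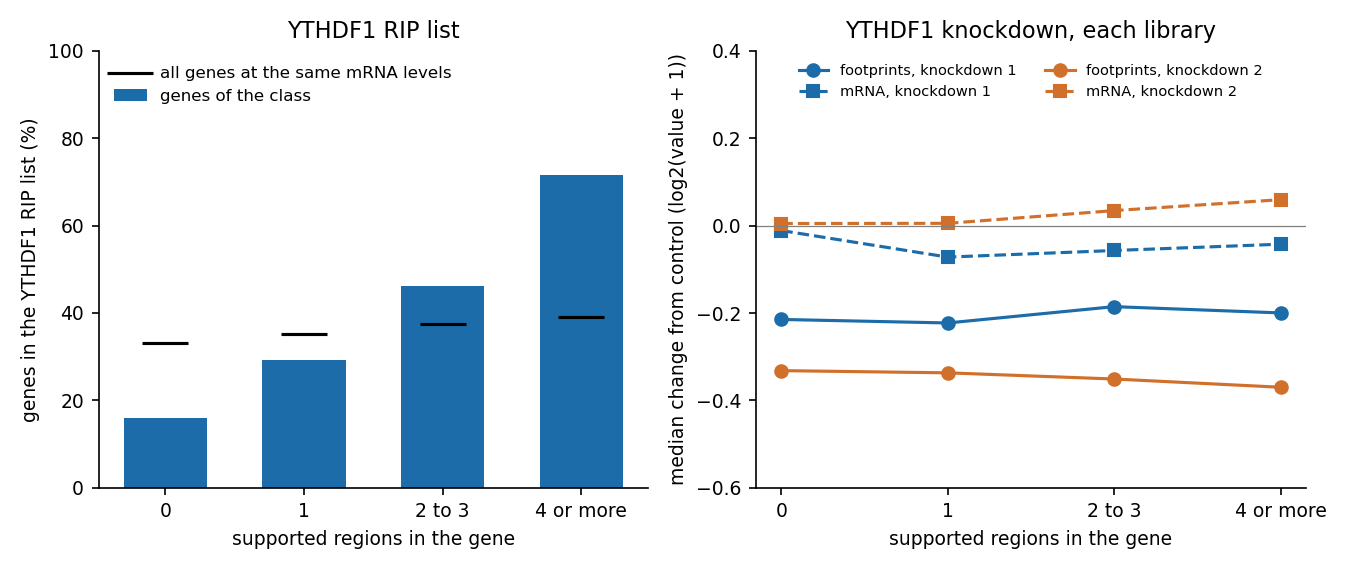
Left, share of genes in the YTHDF1 RIP list (bars, %) by number of supported regions, with black ticks for all genes at the same mRNA levels. Right, median change from the control on the log2(value + 1) scale in each knockdown library, for footprints (circles) and mRNA (squares). The bars go from 16.1% to 71.6%, while the footprint medians stay between -0.19 and -0.22 in knockdown 1 and between -0.33 and -0.37 in knockdown 2.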

How the data were processed

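Per the submitters' processing notes STAR and GRCh38 were used. No label or header names a peak caller. The deposited m6A lists, called per replicate, hold a ratio (POI), equal to the immunoprecipitate signal over the input signal. The expression table holds a signal per gene deposited by the authors in a unit the file headers do not name, and the RIP list holds FPKM with its ratio, per the file headers. Read depth is unknown, so no count model and no test was used.

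Windows sharing at least 1 base were chained into regions, the strongest window of each list giving the values. The table has 6926 rows, of which 12 names damaged by a spreadsheet were left out, and 325 genes were matched through RefSeq synonyms. The m6A lists hold 16 such damaged names, which joined no other table. Families were set by symbol pattern, so that a few members are relatives and not subunits (ATPIF1, LSM14A). Named genes were the 10 with the most regions (1 of them is not reported here), the 10 strongest regions, the 10 most abundant genes without a window, the 3 most abundant members of the 6 families furthest above and 6 furthest below, the windows nearest the POI threshold and 12 Wnt and m6A genes. Further members named beside them, such as SOX9, LDHA, LDHB, NARS, UQCRC2, RPL41, RPS28, RPS3A, SF3B1 and the remaining Wnt and m6A genes, were chosen after their values were seen. The members and lists were chosen with earlier results of these data known. The functions were tested on simulated data. Python 3.11.15 and pandas 2.3.3 were used.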

Additional observations from a re-analysis of the deposited data

How the results depend on the processing

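Requiring POI of at least 5 in both lists left 9429 supported regions of 17592, 1.67 per marked gene against 2.25, and a median centre at base 1588 against 1525; overlaps of at least 50 bases or of 50% of the shorter window left 17497 and 17543. Single lists gave 2.78 to 2.82 windows per gene and a median centre at 1550 to 1562. Median POI was 5.43 and 5.38 with input of at least 20. The number of families above matched genes ranged from 18 to 21 over every setting. Differences between genes with at least 4 and with no region, averaged over knockdown libraries, were -0.05 in translation efficiency, -0.01 in footprints and 0.01 in mRNA (-0.11, -0.058 and 0.02 with values of at least 5), with ranges over single libraries of -0.13 to 0.030, -0.038 to 0.015 and -0.031 to 0.055, so each turns sign with the library. The ZBTB difference was -13.8 points at mRNA of at least 5. The cause of these shifts was not tested. Matching on gene span was chosen after seeing the data, and matching on coding length was not run because no length was used here. No paired analysis was possible because the m6A replicates form 1 group and no result comes from a test.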
